A study of Sus scrofa with 92 samples.

Results

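Of the 18 Fasted (FS) Baseline libraries of a pig liver biopsy series, 3 carried a striated muscle transcriptome and almost no hepatocyte RNA, and 15 carried a liver transcriptome. The 3 libraries were those labelled Baseline liver of animals 17, 19 and 21. They were chosen by a measured value, albumin (ALB) under 1000 CPM, a count scaled to the library total, against ALB above 50000 CPM in the other 15. The highest ALB among the 3 was 52.7 CPM, in animal 19, and the lowest among the 15 was 59451 CPM, with no library between. The 3 libraries are 3 of 92 in the series, which holds 23 animals sampled at 4 timepoints. Because ALB chose them, every difference between these 3 and the 15 at Baseline is given below as a description with no test. Tests of these animals against the others used only later libraries, which the rule did not use. Fits of the comparisons the study made hold the 3 libraries, and their values with the 3 included are a description too.

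All 18 animals were male Yorkshire-Landrace pigs that were fasted overnight, instrumented and splenectomized under anesthesia, and the Baseline biopsy came before injury. Blunt chest injury, a liver crush and hemorrhage followed, then resuscitation, with biopsies labelled 2, 8 and 20 hours into it (FR2, FR8 and FR20). The labels give each of the 3 animals as having lived, and 3 of the other FS animals died. Another 5 animals, Carbohydrate Prefed (CPF), had been given a bolus of sugar syrup before anesthesia. Each library is 1 biopsy of 1 animal, so the spread within a group is between animals. By the methods of the study the biopsies were cut from the edge of the liver.

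Striated muscle is built of sarcomeres, in which thick filaments of myosin pull on thin filaments of actin when calcium released from the sarcoplasmic reticulum binds troponin. The Z-disc anchors the thin filaments, and fibres are slow or fast according to the myosins, troponins and calcium pumps they make. Hepatocytes, the main cells of the liver, make most plasma proteins, detoxify ammonia through the urea cycle, store and release glucose and form bile, under a set of nuclear factors led by HNF4A.

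The counts of the 3 libraries summed to 20315978, 17047791 and 16028613 in animals 17, 19 and 21, against 6877117 to 14642156 (median 12290205) in the 15, so the 3 were the deepest of these 18, and what depth adds to the differences below was not tested. The deposited table names genes by pig Ensembl identifier, and 12503 of 25322 identifiers were given a symbol. Values below are in CPM on the library total and follow the order animal 17, 19 and 21. Levels are not set against each other between genes, because no gene lengths were used. In bulk tissue, fewer cells of a type and less RNA per cell cannot be told apart. Myosin heavy chains, actins and tropomyosins have close copies whose reads the counting may have split, so the values of single members of these families are uncertain.

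The labelled tissue was checked first. ENSSSCG00000008948 (ALB), the main protein of plasma, was at 0.197, 52.7 and 0.312 CPM in the 3 libraries, which is 4, 899 and 5 counts, and at 59451 to 144147 CPM (median 120756) in the 15. The 95% Wilson interval, which covers counting error only, was 0.0766 to 0.506 CPM in animal 17, 49.4 to 56.3 in animal 19 and 0.133 to 0.730 in animal 21. ENSSSCG00000011640 (TF, transferrin, the iron carrier) was at 0.689, 20.9 and 0.187 CPM against 10343 to 28608 CPM (median 22521). ENSSSCG00000011799 (AHSG, fetuin-A) was at 0, 30.7 and 0 CPM against 10140.3 to 29484 CPM (median 22996). All 3 liver markers were thus near or at 0 in animals 17 and 21 and low in animal 19, and no library of the 3 reached the lowest of the 15.

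The striated muscle markers had the opposite order. ENSSSCG00000010190 (ACTA1, skeletal alpha actin) was at 18973, 27283 and 25109 CPM against 0 to 23.99 CPM (median 0.0845). ENSSSCG00000020785 (DES, desmin, the intermediate filament of muscle) was at 16279, 14292 and 14223 CPM against 12.9 to 35.04 CPM (median 15.7). ENSSSCG00000002029, slow myosin heavy chain, was at 5149, 6108 and 4465 CPM against 0 to 5.96 CPM (median 0). It is MYH7 in the tables of the study and MYH6 in the gene name table used here. The lowest of the 3 libraries stood above the highest of the 15 for each of these genes, and the label liver therefore did not match the content of the 3 libraries labelled Baseline of animals 17, 19 and 21.

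**Figure D1:**
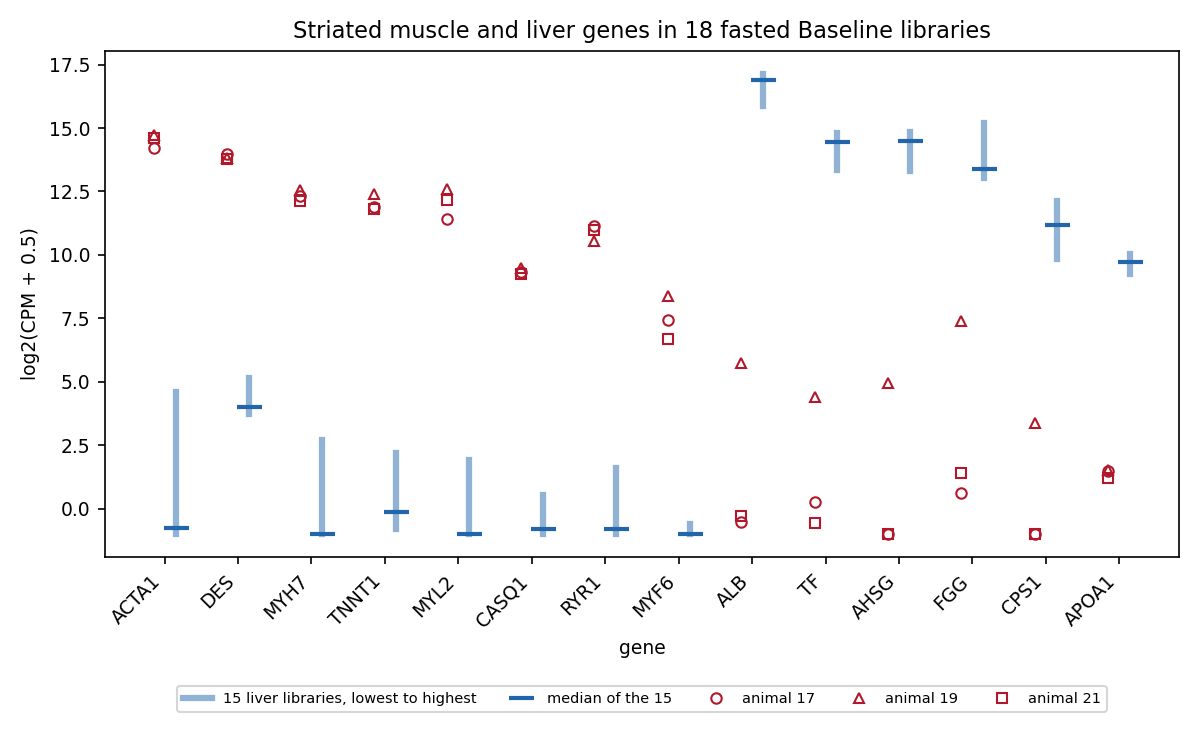
Levels of 8 striated muscle genes (left) and 6 liver genes (right) in the 18 FS Baseline libraries. The y axis is log2(CPM + 0.5), red symbols are the 3 libraries labelled Baseline of animals 17, 19 and 21, and blue bars span the other 15 libraries with their median. Red symbols lie above the blue bars for the muscle genes and below them for the liver genes, with animal 19 the highest of the 3 for ALB, TF, AHSG, FGG and CPS1.

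Across all genes, 12099 passed the filter, a CPM total of 10 or more across the 18 libraries. A gene without counts in 1 set of libraries could pass only through the other set, so counts and medians over the genes tested describe the lists and support nothing further. A gene was counted as higher or lower where the 3 and the 15 libraries did not overlap and the means differed by at least 1 on the log2(CPM + 0.5) scale. On this count 3237 genes were higher in the 3 (26.8%) and 1706 were lower (14.1%), and 65.5% of the counted genes were higher. All list counts at Baseline given below stand beside these shares. Of the higher genes, 137 had at most 3 counts in each of the 15 libraries, and of the lower genes 315 had at most 3 counts in each of the 3. The median difference over all genes was 0.49 on library totals and 0.05 with TMM scaling, a method that sets most genes equal between libraries. With TMM, 2172 genes were higher and 2296 lower, so 48.6% of the counted genes were higher, and 3873 genes kept their direction with 0 reversed. RLE size factors, another such scaling, gave 48.4% higher.

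The 3 libraries resembled each other. Over these genes on the log2 scale, Pearson's r was 0.973 between animals 17 and 21, 0.966 between 17 and 19 and 0.955 between 19 and 21. Among the 15 it ran from 0.903 to 0.980 (median 0.952), and between a library of the 3 and a library of the 15 from 0.438 to 0.586. These r values are across genes of libraries that share a gene set and are given as description.

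The genes that took most of the counts differed in kind. In the 15 libraries ALB was the most abundant by counts, and 1 gene alone took 5.95% to 14.4% of a library. In the 3 libraries the mitochondrial gene for cytochrome oxidase subunit 1 (COX1) led, at 76703, 76882 and 58428 CPM against 12906 to 35154 CPM (median 18034). ACTA1, filamin C (FLNC), DES and ankyrin repeat domain 1 (ANKRD1), a stretch-responsive titin partner, were among the 15 leading genes of the 3, and so was XIRP2, which binds actin at the ends of myofibrils. HRG, a plasma glycoprotein, and APOC3, an inhibitor of lipoprotein lipase, were among the 15 leading genes of the liver libraries. HRG was at 0, 1.53 and 0 CPM against 3285 to 15703 CPM (median 9789.8). APOC3 was at 0, 18.9 and 0 CPM against 7041 to 18317 CPM (median 10509). Both genes were at 0 in animals 17 and 21 and had counts in animal 19.

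Genes encoded in the mitochondrial genome summed to 23.8%, 21.3% and 18.7% of the counts of the 3 libraries, against 4.76% to 13.5% (median 6.76%) in the 15, with no overlap. Of the 13 such genes, 9 were higher on library totals and 0 were higher with TMM, where the median difference was 0.91. Of 23 nuclear genes of the respiratory chain tested, 13 were higher and 1 lower on library totals (7 and 1 with TMM). Their median was 1.12. Of all genes, 26.8% were higher and 14.1% lower on library totals. NDUFA4, a subunit of cytochrome oxidase, was at 1061, 1106 and 737 CPM against 157 to 294 CPM (median 236). SDHC, a membrane anchor of succinate dehydrogenase, was the 1 lower gene, at 110.0, 72.3 and 69.00 CPM against 123 to 273 CPM (median 182).

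Thin filament genes were higher as a group. Of 15 identifiers in this list 14 were tested, 13 were higher and 0 lower, and the median difference was 10.26 beside 0.49 for all genes. The thin filament genes took 4.64%, 5.74% and 5.02% of the counts of the 3 libraries. ACTA1 differed by 14.23 ± 0.53 (SE) on the log2 scale, with a ratio of means of 7489-fold. TPM2, beta tropomyosin, which winds along actin and blocks or exposes the myosin sites, was at 5090.4, 6489 and 5552 CPM against 21.3 to 64.3 CPM (median 33.2). NEB, nebulin, which spans the filament, was at 3505, 2338 and 2485 CPM against 0 to 5.32 CPM (median 0.814). The remaining gene, NEBL (nebulette), was at 0.541, 0.587 and 0.686 CPM against 0.663 to 4.804 CPM (median 2.70), overlapped the 15 on library totals and was lower than the 15 with TMM.

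Cardiac alpha actin (ACTC1), which fetal and regenerating skeletal muscle also makes, was at 3129, 520.0 and 1671 CPM against 0 to 1.19 CPM (median 0.155). It was 6.02-fold higher in animal 17 than in animal 19, and still far above the 15 in each. The leiomodins LMOD2 and LMOD3, which nucleate actin filaments, and the capping protein TMOD4 were each above 275 CPM in every library of the 3 and at most 1.06 CPM in the 15.

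For the thick filament, 17 of 18 identifiers were tested, 16 were higher and 0 lower, with a median of 9.44. MYL2, the slow regulatory light chain, was at 2697, 6233 and 4552 CPM against 0 to 3.26 CPM (median 0). MYLPF, the fast regulatory light chain (MYL11 in the gene name table), was at 4577, 4474 and 4391 CPM against 0 to 4.69 CPM (median 0). MYL1, the fast essential light chain, was at 3939, 3677 and 3577 CPM against 0 to 2.54 CPM (median 0). For each of these light chains the median of the 15 libraries was 0 while every library of the 3 was far above them. MYH13, the extraocular myosin heavy chain, was at 67.1, 29.5 and 42.05 CPM, at least 175-fold above the 15, which had at most 3 counts each. MYH7B was the exception, at 29.1, 27.5 and 18.5 CPM against 9.51 to 34.2 CPM (median 12.3), and the groups overlapped.

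Both fibre types were represented. In the slow fibre list 9 of 10 genes tested were higher, with a median of 11.70, and in the fast fibre list 10 of 10, with a median of 11.21. The slow troponins TNNC1, TNNT1 and TNNI1 and the fast troponin TNNC2 hold the calcium switch. TNNC1, which binds calcium in slow fibres, was at 3879, 5981 and 3683 CPM against 0 to 4.05 CPM (median 0). TNNC2, its fast counterpart, was at 2533, 2377 and 2586 CPM against 0 to 3.65 CPM (median 0.0683). The slow genes were highest in animal 19 for MYH7, MYL2, MYL3, TNNC1, TNNT1, TNNI1 and MYOZ2, whereas CSRP3, another gene of that list, was lowest there. ENSSSCG00000018005, a fast myosin heavy chain given as MYH1 by the study and as MYH8 by the gene name table, was at 3488, 1772 and 1678 CPM against 0 to 2.22 CPM (median 0), highest in animal 17. MYH2, the fast oxidative myosin heavy chain, was at 231, 178 and 179 CPM against 0 to 0.731 CPM (median 0). PVALB, the calcium buffer of fast fibres, was below the filter at 0.541, 0 and 2.62 CPM.

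The summed slow list was 22345, 32451 and 22317 CPM, and the summed fast list 20571, 17599 and 17207 CPM. In the 15 libraries the sums were at most 52.6 and 20.3 CPM. The slow sum was thus highest in animal 19 and the fast sum highest in animal 17, and the share of fibres of each type was not measured.

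At the Z-disc and in the intermediate filaments, 24 of 25 identifiers were tested and all 24 tested were higher, with a median of 9.68. FLNC, which links the Z-disc to the membrane, was at 13805, 14226 and 18209 CPM against 0.0980 to 11.6 CPM (median 1.71). ANKRD1 was at 8997, 9762 and 14765 CPM against 0.686 to 13.3 CPM (median 3.91). ACTN2, alpha-actinin, which cross-links the thin filaments, was at 4015, 3488 and 3072 CPM against 0.196 to 5.96 CPM (median 0.972). No library of the 15 reached 14 CPM for any of these genes. CRYAB, the small heat shock protein that guards desmin, was at 8716, 7253 and 8545 CPM against 21.6 to 281 CPM (median 49.8) and so had a clear level in liver as well. MYPN, myopalladin, was at 178, 82.2 and 157 CPM and at 0 CPM in each of the 15, at least 526-fold higher. PDLIM5 had the smallest difference of the list, 1.70 ± 0.09 (SE), at 146, 139 and 159 CPM against 33.5 to 60.4 CPM (median 43.7).

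Genes of excitation and calcium handling were higher in 23 of 23 tested, of 25 identifiers, with a median of 6.22. RYR1, the calcium release channel of the sarcoplasmic reticulum, was at 2278, 1513 and 2016 CPM against 0 to 2.54 CPM (median 0.0829). ATP2A1, the calcium pump of fast fibres, was at 1624, 1079 and 1179.6 CPM against 0 to 1.59 CPM (median 0). SLN, sarcolipin, which restrains the pump, was at 1668, 468 and 911 CPM against 0 to 1.03 CPM (median 0). Each of these stood apart from the 15, and SLN varied most among the 3, from animal 19 (lowest) to animal 17 (highest). CASQ1, the calcium store of the reticulum, was at 634, 715 and 608 CPM against 0 to 0.953 CPM (median 0.0683). CACNA1S, the voltage sensor that opens RYR1, was at 309.6, 228 and 279 CPM against 0 to 0.477 CPM (median 0). Triadin (TRDN), which ties CASQ1 to RYR1, has more than 1 identifier, and ENSSSCG00000027613 was at least 407-fold higher.

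The neuromuscular junction list had 8 of 11 identifiers tested, 6 higher and 0 lower, with a median of 3.95. The receptor subunit CHRND was at 14.9, 53.3 and 23.6 CPM and at 0 CPM in each of the 15, at least 116-fold higher, and was highest in animal 19. RAPSN, which clusters the receptors, was at 26.4, 16.1 and 27.5 CPM against 0 to 0.397 CPM (median 0.0829). MUSK, the receptor kinase of the junction, was at 6.50, 8.56 and 5.74 CPM and at 0 CPM in each of the 15, at least 26.2-fold higher. LRP4, the agrin receptor, was at 1.43, 3.23 and 4.99 CPM against 0.436 to 7.29 CPM (median 2.37), and the groups overlapped.

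Energy supply differed by enzyme form. In the muscle energy list 23 of 27 identifiers were tested and 23 were higher, with a median of 5.31 (22 higher with TMM). Among enzymes for which a muscle form and another form were listed, 23 of 28 identifiers of the muscle form were tested and 23 were higher. Of the 18 identifiers of the other form 16 were tested, 1 was higher and 6 were lower. Of all genes tested, 26.8% were higher and 14.1% lower on library totals.

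Glycogen handling showed the exchange in both directions. PYGM, muscle glycogen phosphorylase, was at 2453, 2157 and 1919.8 CPM against 0.177 to 3.57 CPM (median 1.14). PYGL, the liver form, was at 20.5, 27.6 and 37.1 CPM against 81.4 to 246 CPM (median 160.3). Every library of the 3 was above the 15 for the first and below them for the second. GYS1, muscle glycogen synthase, was at 284, 191 and 311 CPM against 15.96 to 45.99 CPM (median 24.3). GYS2, the liver form, was at 0, 0.293 and 0.0624 CPM against 167 to 732 CPM (median 458). The same exchange held for the glucose transporters. SLC2A4 (GLUT4, ENSSSCG00000017933) was at 18.8, 36.1 and 10.04 CPM against 0.163 to 6.98 CPM (median 0.856). SLC2A2 (GLUT2) was at 0, 0.0587 and 0 CPM against 67.6 to 246 CPM (median 119), at least 801-fold lower.

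In glycolysis the muscle forms were added to forms that did not stand apart. HK2, the hexokinase of muscle, was at 688, 492 and 1086 CPM against 0 to 0.975 CPM (median 0.0845). ENO3, muscle enolase, was at 5560.2, 4546 and 4721 CPM against 0.392 to 5.12 CPM (median 1.33). ENO1, the general form, was at 141, 196 and 217 CPM against 90.2 to 393 CPM (median 156), inside their range. PGAM2, muscle phosphoglycerate mutase, was at 1066, 984 and 725 CPM against 0 to 0.715 CPM (median 0.0775). PGAM1 was at 43.4, 43.3 and 57.3 CPM against 18.5 to 103 CPM (median 44.4), again inside the range. PKM was at 944, 989 and 803 CPM against 21.5 to 62.4 CPM (median 31.1), with every library of the 3 higher. Pyruvate kinase of liver (PKLR) had no count in any of the 18 libraries.

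Fuel oxidation also differed by form. FABP3 (ENSSSCG00000003546), the fatty acid binding protein of muscle, was at 152, 228 and 119 CPM against 0.326 to 11.8 CPM (median 1.13). CPT1A, the liver form of the enzyme that admits fatty acids to mitochondria, was at 22.2, 23.6 and 39.6 CPM against 166 to 725 CPM (median 279). PDK4, which shuts off pyruvate oxidation in fasting, was at 1268, 6946 and 2766 CPM against 69.5 to 985 CPM (median 404) and was 5.48-fold higher in animal 19 than in animal 17. SLC25A4, the muscle form of the adenine nucleotide translocator, was at 1935, 2016 and 1212 CPM against 276 to 578 CPM (median 535). SLC25A5 was at 24.2, 36.6 and 40.4 CPM against 71.6 to 136 CPM (median 93.6). The first was higher and the second lower in each library of the 3. The gamma subunit PRKAG2 of the AMP-activated kinase was the 1 higher gene among the other forms, at 94.3, 111 and 91.2 CPM against 15.9 to 27.7 CPM (median 24.3).

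Factors that set the muscle program were present. In the myogenic list 10 of 12 identifiers were tested and 10 were higher, with a median of 5.48 (9 higher with TMM). MYF6, the regulator that persists in adult fibres, was at 173, 336 and 103 CPM against 0 to 0.163 CPM (median 0), at least 773-fold higher. MYOD1, which commits cells to muscle, was at 102, 49.4 and 133 CPM against 0 to 0.357 CPM (median 0.0813). MYOG, which drives their differentiation, was at 101, 18.6 and 72.7 CPM and at 0 CPM in each of the 15, at least 243-fold higher. MYOG was lowest in animal 19, and MYF6 was highest there. MEF2A, which many tissues make, had the smallest difference of the list, at 111, 88.2 and 107 CPM against 24.1 to 45.3 CPM (median 38.5).

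In the list of muscle proteolysis and growth control 8 of 10 identifiers were tested and 8 were higher, with a median of 6.06. TRIM63 (MuRF1), the ubiquitin ligase of muscle atrophy, was at 1407, 2168 and 3113 CPM against 0 to 1.91 CPM (median 0). FBXO32 (atrogin-1), another such ligase, was at 132, 103 and 97.3 CPM against 1.22 to 4.90 CPM (median 2.30). HSPB8, a chaperone of damaged filaments, was at 2567, 2014 and 3864 CPM against 77.8 to 125 CPM (median 92.1) and was thus also made in liver.

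Markers of satellite cells, the stem cells of muscle, had low levels. Of 5 identifiers 3 passed the filter, and CDH15 did so only through the 3 libraries. CDH15, M-cadherin, was at 9.99, 5.98 and 6.93 CPM and at 0 CPM in each of the 15, at least 28.9-fold higher. MYF5 was below the filter at 3.89, 1.53 and 4.12 CPM, with 0 CPM in each of the 15. MYH3, the embryonic myosin heavy chain, was at 26.2, 9.27 and 15.97 CPM against 0.166 to 2.22 CPM (median 1.37).

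Homeobox genes of the HOX clusters, which record position along the body, were compared because limb, trunk and visceral tissues keep different sets. Of 30 identifiers 6 were tested, 4 were higher and 0 lower (3 higher with TMM), beside 26.8% and 14.1% of all genes on library totals. HOXD9 was at 14.9, 21.3 and 13.1 CPM against 0 to 0.163 CPM (median 0), at least 62.2-fold higher. HOXD8 was at 10.6, 5.81 and 7.17 CPM against 0 to 0.0980 CPM (median 0), at least 29.7-fold higher. HOXA10, HOXA11 and HOXC10 were at 0 in all 3 libraries, which allows up to 0.148, 0.176 and 0.187 CPM at 3 counts. They were at 0 in the 15 as well. Identifiers without a count in any of the 18 libraries may have taken no reads, so this bound may not hold for them. HOXB5 was at 0.0984, 0.0587 and 0 CPM against 0.0884 to 1.02 CPM (median 0.428). The muscle the RNA came from cannot be told from these values.

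**Figure D2:**
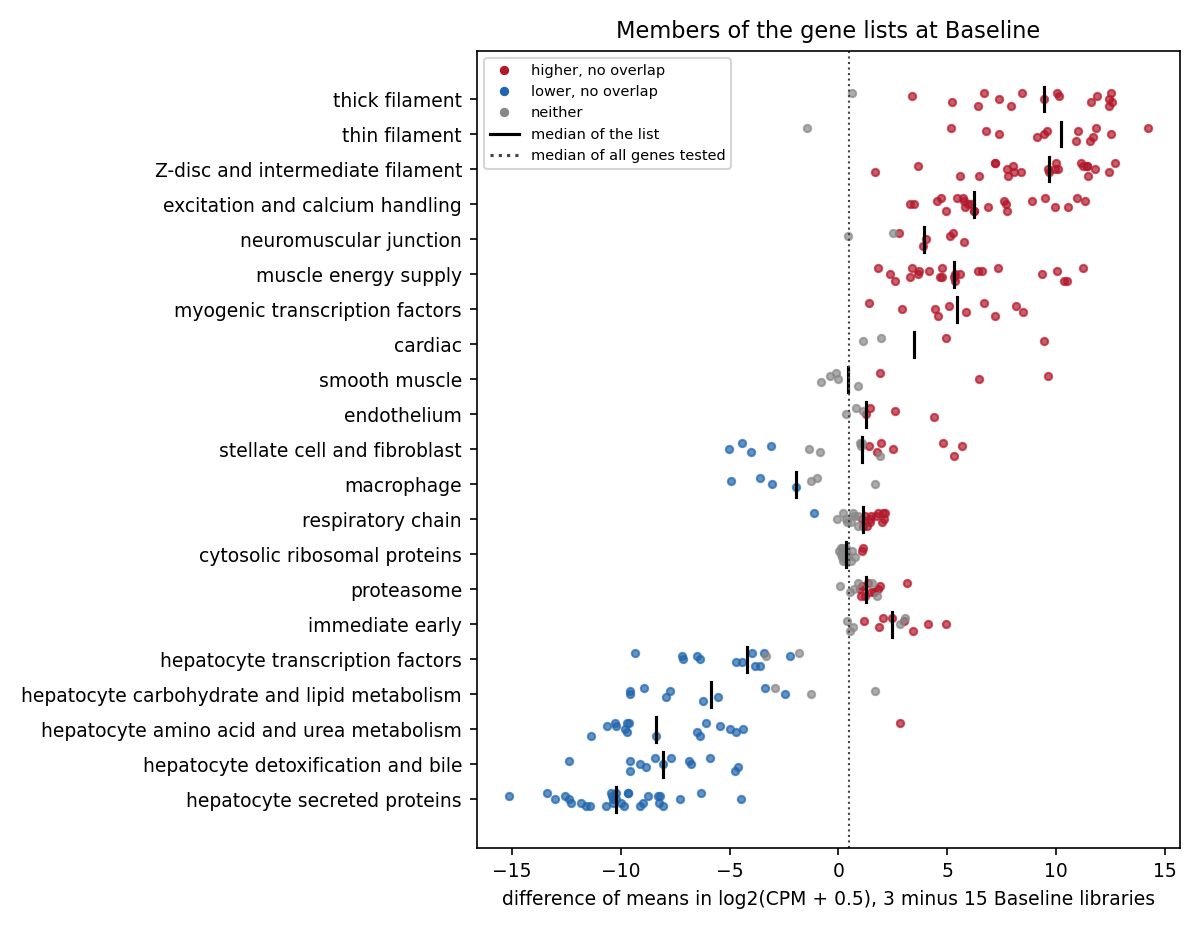
Each point is 1 gene of a list that passed the filter, placed by the difference of means in log2(CPM + 0.5) between the 3 libraries labelled Baseline of animals 17, 19 and 21 and the 15 liver libraries. Red points were higher and blue points lower without overlap, grey points were neither, black bars are list medians, and the dotted line is the median of all genes (0.49). Muscle lists lie to the right, hepatocyte lists to the left, and ribosomal protein genes near the dotted line.

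The hepatocyte lists had the opposite direction. All 30 identifiers of the secreted protein list were tested and 30 were lower, with a median of -10.23. They summed to 77.3, 640 and 76.7 CPM in the 3 libraries against 211478 to 282863 CPM (median 249442) in the 15, so animal 19 held the most of the 3. APOC3 and AMBP, the precursor of alpha-1-microglobulin, were each at 0 in animals 17 and 21. ITIH2, an inhibitor heavy chain, was at 0 CPM in all 3 and at 79.7 to 1183 CPM (median 407) in the 15, at least 3082-fold lower. ITIH4, of the same family, differed least, by -4.50 ± 0.46 (SE), at 54.8, 96.7 and 43.1 CPM against 575 to 13126 CPM (median 1341). RBP4, the retinol carrier, was at 3.003, 9.91 and 4.43 CPM against 3524 to 5694 CPM (median 4719).

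Amino acid and urea cycle genes were lower in 16 of 17 tested (18 identifiers), with a median of -8.41. CPS1, the entry enzyme of the urea cycle, was at 0, 9.91 and 0 CPM against 924 to 4487 CPM (median 2306). OTC, the next enzyme, was at 0, 0.293 and 0 CPM against 318 to 672 CPM (median 534). TAT, which degrades tyrosine, was at 0, 2.58 and 0 CPM against 415 to 6536 CPM (median 2617). Each was at 0 in animals 17 and 21. GLUL, glutamine synthetase, which muscle also makes, was the 1 higher gene, at 758, 1460.5 and 1503 CPM against 62.2 to 479.8 CPM (median 185).

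For carbohydrate and lipid metabolism 12 of 14 identifiers were tested, 9 were lower and 0 higher, with a median of -5.88 (10 lower with TMM). PCK1, the committing enzyme of gluconeogenesis, was at 2.22, 5.40 and 3.43 CPM against 1299 to 7243 CPM (median 3014). MTTP, which loads lipoproteins with lipid, was at 0, 1.82 and 0.0624 CPM against 312 to 698 CPM (median 389). KHK, which phosphorylates fructose, was at 6.05, 7.33 and 7.55 CPM against 213 to 577 CPM (median 353). All of these were lower without overlap, whereas PPARA and ACAT2 overlapped the 15.

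In detoxification and bile formation 13 of 14 identifiers were tested and 13 were lower, with a median of -8.05. CYP2E1, a cytochrome P450 of ethanol and drug oxidation, was at 0, 0.411 and 0 CPM against 1743 to 4564 CPM (median 3509). BAAT, which conjugates bile acids, was at 0 CPM in all 3 and at 58.7 to 623 CPM (median 274) in the 15, at least 1666-fold lower. SLC10A1 (ENSSSCG00000002313), the bile acid uptake carrier, was at least 2844-fold lower. EPHX1, microsomal epoxide hydrolase, differed least, by -4.61 ± 0.17 (SE), at 25.2, 22.9 and 21.3 CPM against 252 to 1198 CPM (median 616).

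The factors of hepatocyte identity were lower in 12 of 14 tested (15 identifiers), with a median of -4.19 (13 with TMM). HNF4A was at 0.0492, 1.06 and 0 CPM against 326 to 694 CPM (median 477). FOXA2, a pioneer factor of liver, was at 0.0492, 0.117 and 0 CPM against 28.4 to 108 CPM (median 49.1), at least 313-fold lower. No library of the 3 passed 1.06 CPM for either. CEBPA and NR0B2 overlapped the 15.

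The low hepatocyte signal of the 3 libraries was not evenly spread. Of the 30 secreted protein identifiers, 16 had at most 3 counts in animal 17, 19 in animal 21 and 3 in animal 19. The median level relative to the median of the 15 libraries was 0.208% in animal 19. ITIH4 had the highest share in each library, 4.09%, 7.21% and 3.22%. In animal 19 the next 4 were fibrinogen identifiers. FGB (ENSSSCG00000008997), the beta chain, was at 1.80% of the liver median, and FGG, the gamma chain, at 1.59%, and both identifiers of the alpha chain FGA were at 1.07% and 1.22%. Another identifier of FGB (ENSSSCG00000023883) went against this, with 4 counts in animal 19 and 0.107% of the liver median. AHSG was at 0.134% and ALB at 0.0437%.

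The count of FGG relative to ALB was 3.22 in animal 19, from 2893 and 899 counts, against 0.0682 to 0.640 (median 0.0885) in the 15 Baseline libraries. In the other 15 animals this ratio reached 0.710 labelled FR2, 1.46 labelled FR8 and 4.13 labelled FR20 (median 0.797 at FR20). The ratio of FGB (ENSSSCG00000008997) to ALB was 1.67 in animal 19, against at most 1.11 in the libraries labelled FR20 of the other 15. In animals 17 and 21 the ratio of FGG to ALB, 5.25 and 6.8, rests on 4 and 5 counts of ALB. In animal 19, FGG was thus high relative to albumin beside every Baseline liver library, and how this came about was not tested.

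Other cell types differed from liver in both directions. Their list counts stand beside 26.8% of all genes higher and 14.1% lower on library totals. With TMM, 2172 of 12099 genes were higher and 2296 lower. Kupffer cells, the macrophages of liver, are marked by MARCO and CD14. Of 8 macrophage identifiers 7 were tested, 4 were lower and 0 higher on library totals (6 lower with TMM), and the list summed to 93.9, 109 and 211 CPM against 1079 to 1760 CPM. CD14, a lipopolysaccharide receptor that hepatocytes also make, was at 17.4, 23.6 and 54.9 CPM against 659 to 1192 CPM (median 864). MARCO, a scavenger receptor, was at 1.28, 1.70 and 2.75 CPM against 6.99 to 57.01 CPM (median 20.8). Of the liver sinusoidal endothelium 4 of 5 identifiers were tested and 3 were lower. OIT3 was at 0, 0.117 and 0.250 CPM against 17.3 to 75.5 CPM (median 40.1), and LYVE1 at 8.37, 12.9 and 10.9 CPM against 13.3 to 61.8 CPM (median 26.1).

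General endothelium went the other way on library totals. All 7 identifiers were tested, and 4 were higher and 0 lower, beside 26.8% and 14.1% of all genes. With TMM 2 were higher, beside 2172 of 12099 genes. The median was 1.29, and the sums were 623, 838 and 927 CPM against 180 to 405 CPM. PECAM1, an adhesion molecule of all endothelium, was at 283, 433 and 477 CPM against 37.3 to 106 CPM (median 66.6). ENSSSCG00000000712, given as VWF (von Willebrand factor) by the study and as ANO2 by the gene name table, was at 52.5, 61.1 and 82.4 CPM against 0.238 to 7.85 CPM (median 2.81). TEK, the angiopoietin receptor, overlapped, at 29.5, 23.7 and 45.8 CPM against 14.1 to 37.3 CPM (median 26.4).

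Stromal genes were split. Of 17 tested in the stellate cell and fibroblast list (19 identifiers), 7 were higher and 4 lower (5 and 5 with TMM). Of all genes, 26.8% were higher and 14.1% lower on library totals. LUM, lumican of muscle and tendon matrix, was at 68.4, 52.3 and 60.8 CPM against 0.0814 to 3.23 CPM (median 1.33). THBS4, a thrombospondin of tendon and muscle, was at least 99.1-fold higher for ENSSSCG00000014118. FN1, fibronectin, which hepatocytes secrete in large amounts, was at 191, 127 and 352 CPM against 2719.7 to 6325 CPM (median 4495). LRAT, which stores retinol in stellate cells, was at 0, 0 and 0.125 CPM against 1.47 to 11.8 CPM (median 4.13), at least 27.8-fold lower. COL1A2 (ENSSSCG00000015326), a chain of type I collagen, was at 375, 276 and 594 CPM against 101 to 468 CPM (median 211) and overlapped. FMOD, fibromodulin, overlapped as well, at 5.66, 5.28 and 12.2 CPM against 8.02 to 41.8 CPM (median 19.3). Genes of the matrix thus stood on both sides and in between.

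Genes of smooth muscle and heart were also read, beside 26.8% of all genes that were higher. Of 8 smooth muscle genes tested 3 were higher and 0 lower (2 and 1 with TMM), and DES and SYNM, which striated muscle also makes, were 2 of these. ACTA2, smooth muscle actin, was at 50.1, 62.5 and 106 CPM against 45.97 to 119 CPM (median 75.8), inside the range. The identifier of MYH11, the smooth muscle myosin, had no count in any of the 18 libraries, so the level of MYH11 cannot be read here. Of 11 cardiac identifiers 4 were tested and 2 were higher, MYH6 (ENSSSCG00000030999) and CASQ2, which slow skeletal fibres also make. MYH6 was at 459, 527 and 225 CPM against 0 to 0.556 CPM (median 0). TNNT2, TBX5, TBX20, NPPB and RYR2 were below the filter, with at most 3.06 CPM in any library of the 3.

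Fat, nerve and blood cells were also measured, beside 26.8% of all genes that were higher and 14.1% that were lower. Of 6 adipocyte identifiers tested (of 9), 3 were higher and 1 lower. CD36, a fatty acid translocase of fat and muscle, moved both ways by identifier, with ENSSSCG00000015405 at 336, 475 and 293 CPM against 0.363 to 4.90 CPM (median 2.03) and ENSSSCG00000030638 at 1.38, 0.997 and 2.37 CPM against 43.5 to 237 CPM (median 143). PLIN1, the coat of fat droplets, overlapped the 15 at 2.07, 0.821 and 4.62 CPM. Of 3 nerve genes tested (4 identifiers) 2 were higher. NCAM1, an adhesion molecule of nerve and muscle, was at 70.04, 21.3 and 40.5 CPM against 0 to 0.414 CPM (median 0), with no overlap.

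Neutrophil genes were higher in 3 of 4 tested (8 identifiers). This and the list counts that follow stand beside 26.8% of all genes higher and 14.1% lower on library totals. S100A9, a calcium-binding protein of neutrophil granules, was at 10.9, 14.7 and 37.99 CPM against 0 to 5.07 CPM (median 0.159), highest in animal 21. Of 3 erythroid genes tested (6 identifiers) 0 stood apart, and ALAS2, the first enzyme of heme synthesis in red cells, was at 9.80, 10.8 and 36.6 CPM against 1.94 to 21.6 CPM (median 6.68). Of 8 T and NK cell identifiers tested 1 was lower, CD8A, and 0 were higher (4 lower with TMM). Of 6 bile duct genes tested 1 was higher and 3 lower (4 with TMM). SOX9 was at 33.3, 14.5 and 41.9 CPM against 2.28 to 10.1 CPM (median 4.96), and EPCAM, an adhesion molecule of bile duct epithelium, at 0, 0.0587 and 0 CPM against 6.42 to 21.98 CPM (median 10.4), at least 64.4-fold lower. Of 2 genes tested in the mesothelium list 1 was higher (UPK1B) and 1 lower (KRT18, which is not particular to mesothelium). EPCAM was thus at or near 0 in the 3, SOX9 was higher, and blood cell genes had counts in both sets of libraries.

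Genes used by all cells served as a background. Their counts stand beside 26.8% of all genes higher on library totals and 2172 of 12099 with TMM. Of 17 ribosomal protein genes tested 2 were higher on library totals, RPLP1 and RPLP2, and 0 with TMM, and the median was 0.35 on totals and -0.14 with TMM, so its sign depended on the scaling. Of 16 proteasome genes tested 10 were higher, and 4 with TMM, with a median of 1.29. PSMD11, a lid subunit, differed most, at 289.9, 239 and 276 CPM against 9.89 to 68.7 CPM (median 29.4). Of 17 nonmuscle cytoskeleton identifiers 6 were higher. VCL, vinculin, which muscle concentrates at its membrane anchors, was at 421, 539 and 361 CPM against 39.1 to 80.4 CPM (median 50.9). ACTB, cytoplasmic actin, was at 451, 662 and 854 CPM against 544 to 1153 CPM (median 789.5) and overlapped.

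Immediate early genes respond within minutes to injury and stretch. Of 13 tested (15 identifiers) 8 were higher on library totals, beside 26.8% of all genes, with a median of 2.48. With TMM 4 were higher, beside 2172 of 12099 genes. FOSL1, a partner of JUN, differed most, at 96.2, 58.5 and 128 CPM against 1.19 to 4.65 CPM (median 2.35). ATF3, a stress factor, was at 100.4, 264 and 316 CPM against 4.02 to 108 CPM (median 20.4). FOS was at 64.2, 231 and 124 CPM against 3.89 to 141 CPM (median 15.1). ATF3 overlapped the 15 in animal 17 and FOS in animals 17 and 21.

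The 3 libraries differed among themselves. Of the 12099 genes, animal 19 was at least 2-fold above both others for 232, among them 31 of the 86 hepatocyte list genes, and at least 2-fold below both for 471. Animal 21 was at least 2-fold above both for 708 genes and below both for 92, and animal 17 above for 81 and below for 175. XIRP2 spread most among the leading muscle genes, at 14121, 1908 and 7054 CPM against 0 to 3.42 CPM (median 0.499). XIRP1, its relative, was at 2995, 1946 and 7566 CPM against 0 to 5.56 CPM (median 0.121). Animal 19 was the lowest of the 3 for XIRP1, XIRP2, ACTC1, MYOG and CSRP3, and for each of these genes it still stood far above the 15.

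The later libraries of the same 3 animals gave liver values. The sum of 20 striated muscle genes was 90972, 102693 and 89935 CPM at Baseline. In the libraries labelled FR2 it was 41.3, 148 and 34.3 CPM, against 38.2 to 325 CPM (median 45.2) in the other 15 FS animals. In those labelled FR8 it was 61.3, 117 and 47.5 CPM, against 33.5 to 278 CPM (median 52.8). In those labelled FR20 it was 42.8, 130 and 50.6 CPM, against 44.4 to 253 CPM (median 66.9). The sum was therefore high in 1 of the 4 libraries of each of these animals. Animal 19 had the highest later sum of the 3 at each label, while animal 21 labelled FR2 and animal 17 labelled FR20 lay below the lowest of the others. On the log2(CPM + 1) scale the differences of means between the 3 and the 15 were -0.02 ± 0.69 (SE) at FR2, 0.28 ± 0.43 at FR8 and -0.23 ± 0.53 at FR20. These differences were smaller than their errors, and an exact 2-sided permutation test over all splits of the 18 animals into 3 and 15 gave p = 0.985, 0.531 and 0.697 (adjusted over 6 values 0.985, 0.796 and 0.837).

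Albumin in these libraries differed from that of the other animals in both directions. Labelled FR2, ALB was at 41461, 52964 and 47566 CPM, against 34090 to 107229 CPM (median 89670). The 3 lay below the median of the others, and the ranges overlapped only through animal 10, at 34090 CPM. The next lowest of the others was animal 22, at 81848 CPM. Labelled FR8, ALB was at 107406, 92098 and 116979 CPM, against 34173 to 112491 CPM (median 48301), so 2 of the 3 lay inside the range of the others and 1 above it. The top of that range was animal 10 alone, and the next highest of the others was animal 4, at 65528 CPM. Labelled FR20, ALB was at 73800, 64854 and 93740 CPM, against 13202 to 58723 CPM (median 30643), with no overlap. The log2 differences were -0.88 ± 0.14 (SE), 1.08 ± 0.14 and 1.37 ± 0.24, and the same exact permutation test gave p = 0.0049, 0.0037 and 0.0037 (adjusted 0.0098 for each of the 3). The smallest p that these splits can give is 0.00123.

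**Figure D3:**
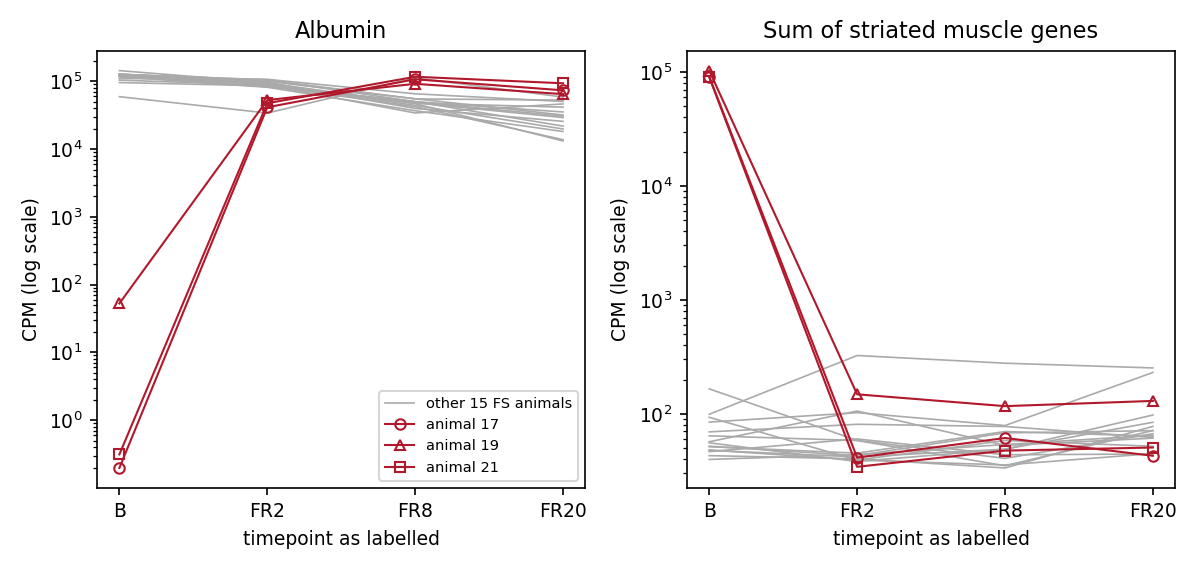
ALB (left) and the sum of 20 striated muscle genes (right) in CPM on a log axis, by timepoint as labelled. Grey lines are the other 15 FS animals and red lines with symbols are animals 17, 19 and 21. In the red lines the muscle sum falls from at least 89935 CPM at Baseline to at most 148 CPM later, and ALB is highest in the libraries labelled FR8, whereas it falls across the labels in most grey lines.

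The order of the later libraries in these animals went against their labels. Each library was set against the mean profiles of the other FS animals at each timepoint, as Pearson's r across 13923 genes, after the mean over the 4 timepoints was subtracted from both. In all 3 animals the library labelled FR2 was nearest the FR8 profile (r = 0.44, 0.24 and 0.53), the library labelled FR8 was nearest the Baseline profile (0.75, 0.59 and 0.75) and the library labelled FR20 was nearest the FR2 profile (0.49, 0.45 and 0.59). Thus 0 of 9 libraries were nearest the timepoint of their label. In the other 15 FS animals 53 of 60 libraries were, and in 11 of these animals all 4 were. In CPF animals it was 18 of 19 (1 FR8 library that the study left out was not used). The 7 exceptions among the 15 were libraries of animals 4, 9, 10 and 20, and animal 10 alone gave 3 of them.

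The 3 libraries labelled Baseline were near no profile, with r between -0.21 and 0.16. The r values are across genes of libraries that share their reference animals, and they are given as description. The cause of the order was not tested. Comparisons by label below are therefore comparisons of libraries labelled so.

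**Figure D4:**
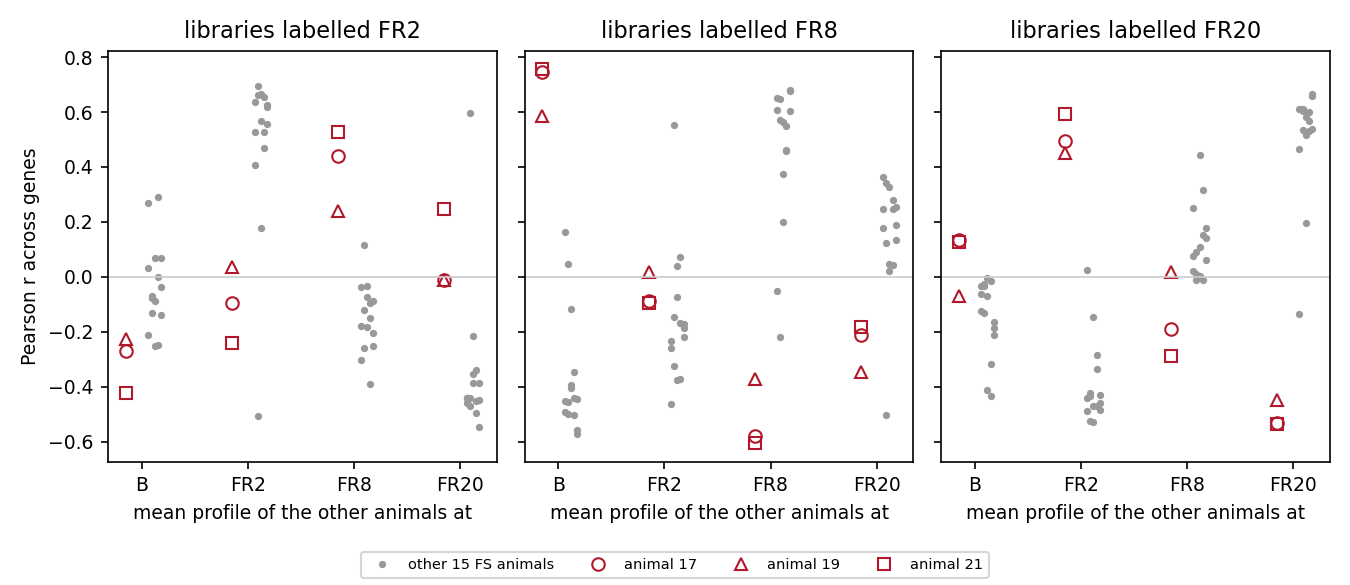
Pearson's r across 13923 genes between each later FS library and the mean profile of the other animals at Baseline (B), FR2, FR8 and FR20, in 1 panel per label. Grey points are the 15 other FS animals and red symbols are animals 17, 19 and 21. The red symbols are highest at FR8 for the label FR2, at B for the label FR8 and at FR2 for the label FR20, whereas most grey points are highest at their own label.

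Single genes were read beside this order. The genes that follow had the smallest adjusted p in the changes from Baseline of the FS animals fitted without the 3, a choice made after the values were seen. PER2, a repressor of the circadian clock, fell at FR8 in the other 15 animals, with 1.57 to 57.6 CPM (median 36.1) at Baseline and 0.356 to 8.54 CPM (median 1.60) at FR8. In animals 17, 19 and 21 it was at 1.16, 6.92 and 1.09 CPM labelled FR2, at 45.5, 9.72 and 53.1 CPM labelled FR8 and at 6.04, 8.96 and 25.9 CPM labelled FR20. The libraries labelled FR8 thus held values in the Baseline range of the others, and the lowest values of animals 17 and 21 carried the label FR2. NOD1, a sensor of bacterial wall fragments, rose at FR2 in the 15, with 0.530 to 7.40 CPM (median 1.61) at Baseline and 5.90 to 63.7 CPM (median 22.2) at FR2. Labelled FR2 it was at 5.96, 6.82 and 6.94 CPM, labelled FR8 at 0.838, 1.07 and 1.83 CPM and labelled FR20 at 10.5, 8.65 and 8.30 CPM in the 3. MYD88, an adaptor of Toll-like receptors, rose at FR8 in the 15, with 13.3 to 77.7 CPM (median 23.1) at Baseline and 58.4 to 136 CPM (median 101) at FR8. In the 3 it was at 79.4, 65.6 and 108 CPM labelled FR2 and 20.3, 39.6 and 21.1 CPM labelled FR8, so the higher values carried the label FR2.

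ITIH3, a plasma protein gene, fell at FR20 in the 15. It was at 1400.3 to 3770.3 CPM (median 2653) at Baseline and 796 to 2058 CPM (median 1410.0) at FR20 in the 15, and at 2205, 2542 and 2875 CPM labelled FR8 and 1626, 1895 and 2069 CPM labelled FR20 in the 3. NQO1, a quinone reductase of the oxidative stress response, rose at FR20 in the 15, with 19.3 to 135 CPM (median 32.6) at Baseline and 87.1 to 1435 CPM (median 648) at FR20. Labelled FR20 it was at 64.6, 47.6 and 39.4 CPM in the 3, and all 3 lay below the lowest of the 15.

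**Figure D5:**
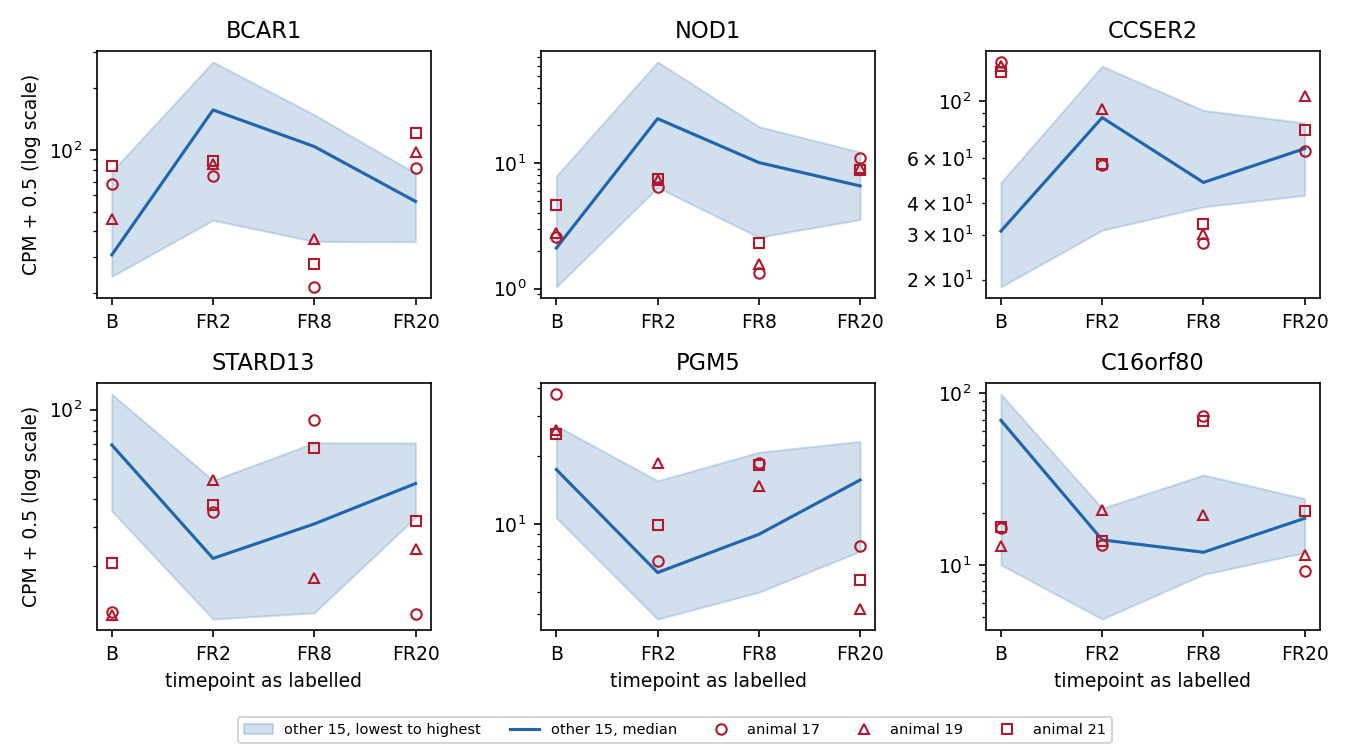
Levels of 3 genes that rose (BCAR1, NOD1, CCSER2) and 3 that fell (STARD13, PGM5, C16orf80) at FR2 in the 15 other FS animals, in CPM + 0.5 on a log axis by timepoint as labelled. The blue band spans the 15 animals with their median as a line, and red symbols are animals 17, 19 and 21. At the label FR8 the red symbols lie below the band for NOD1 and CCSER2, and 2 of 3 lie above it for C16orf80.

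Tested gene by gene with edgeR's quasi-likelihood test, the later libraries of the 3 animals differed from the other 15. Labelled FR2, 327 of 11619 genes were higher (2.81%) and 233 lower (2.01%). Labelled FR8, 923 of 11687 were higher (7.90%) and 743 lower (6.36%). Labelled FR20, 980 of 12009 were higher (8.16%) and 1529 lower (12.7%). The count at FR2 rests on animal 19, since 15 genes were called without it, against 289 without animal 17 and 307 without animal 21. A call needed a Benjamini-Hochberg adjusted p under 0.05 and a log2 fold change of 1 or more in size.

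Labelled FR2, CRELD2, a protein of the endoplasmic reticulum, was at 274, 569.6 and 245 CPM in the 3 against 31.5 to 113 CPM (median 55.4) in the 15 (2.27 ± 0.28 (SE), adjusted p = 0.000288, edgeR). SDF2L1, a partner of the chaperone BiP, was at 207, 447 and 129.5 CPM against 18.6 to 104 CPM (median 33.03) (2.45 ± 0.31 (SE), adjusted p = 0.000288, edgeR). XDH, xanthine dehydrogenase of purine breakdown, was at 35.1, 32.6 and 33.6 CPM against 96.2 to 213 CPM (median 156) (-2.45 ± 0.27 (SE), adjusted p = 0.000155, edgeR). SLC10A1 was at 39.8, 49.2 and 53.2 CPM against 129 to 348 CPM (median 228) (-2.58 ± 0.32 (SE), adjusted p = 0.000288, edgeR). The first 2 were above and the last 2 below all 15. ABCC8, a potassium channel subunit, was called from 1 library, with 0, 0.184 and 14.2 CPM against 0 to 0.0831 CPM (median 0).

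Labelled FR8, ERN1, a sensor of unfolded proteins, was at 120.1, 94.6 and 152 CPM against 24.6 to 64.99 CPM (median 36.9) (2.08 ± 0.16 (SE), adjusted p = 5.41e-07, edgeR). TP53INP1, a stress-induced regulator of autophagy, was at 712, 391 and 738 CPM against 43.5 to 167 CPM (median 66.3) (3.45 ± 0.29 (SE), adjusted p = 1.46e-06, edgeR). LSS, which closes the sterol ring in cholesterol synthesis, was at 282, 229 and 212 CPM against 59.97 to 117 CPM (median 71.1) (2.08 ± 0.19 (SE), adjusted p = 2.16e-06, edgeR). KRT8, a keratin of hepatocytes and bile ducts, was at 270.0, 263 and 287 CPM against 1560.3 to 5291 CPM (median 2379) (-2.89 ± 0.37 (SE), adjusted p = 6.69e-05, edgeR). None of these genes overlapped between the 3 and the 15.

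Labelled FR20, TTPAL, a relative of the tocopherol transfer protein, was at 80.5, 128 and 111 CPM against 5.81 to 23.5 CPM (median 10.1) (3.74 ± 0.26 (SE), adjusted p = 2.75e-08, edgeR). BUD13, a splicing factor, was at 33.5, 62.6 and 62.9 CPM against 14.5 to 26.02 CPM (median 19.1) (2.02 ± 0.15 (SE), adjusted p = 6.64e-08, edgeR). FER, a tyrosine kinase, was at 0.587, 1.70 and 1.66 CPM against 7.62 to 17.7 CPM (median 11.05) (-2.58 ± 0.27 (SE), adjusted p = 2.59e-06, edgeR). These again did not overlap.

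By list, hepatocyte genes were called in both directions. The list counts stand beside the shares of all genes labelled FR2, FR8 and FR20. These were 2.81%, 7.90% and 8.16% higher and 2.01%, 6.36% and 12.7% lower. In detoxification and bile, 4 of 13 tested were lower and 0 higher in the libraries labelled FR2, 10 were higher and 1 lower labelled FR8, and 2 were higher and 3 lower labelled FR20, with medians of -1.49, 1.86 and 0.53. In secreted proteins, 4 of 30 were lower and 0 higher labelled FR2, 10 higher and 4 lower labelled FR8, and 9 higher and 1 lower labelled FR20. The median of all genes tested was 0.03, -0.03 and -0.07. Neutrophil genes were lower for 3 of 5 tested labelled FR8 and higher for 4 of 6 labelled FR20. Of thick filament genes 1 of 10 was higher labelled FR2, 1 of 9 labelled FR8 and 2 of 11 labelled FR20, where 1 was lower, beside 2.81%, 7.90% and 8.16% of all genes that were higher. Of muscle energy genes 1 of 17 was lower labelled FR2, and 3 of 16 were higher and 2 lower labelled FR8. Labelled FR20, 1 of 16 was higher and 2 were lower, and the 2 were near the 12.7% of all genes. Of thin filament genes 0 of 9, 0 of 9 and 0 of 10 were called.

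The 3 libraries served as Baseline in the comparison of timepoints within FS animals (FR2vB, FR8vB and FR20vB are FR2, FR8 and FR20 against Baseline). The fit also held the CPF animals, with their own time terms, 91 libraries in all. With all 18 FS animals and a term for each animal, edgeR's quasi-likelihood test called 1464 of 13923 genes in FR2vB, 1477 in FR8vB and 1149 in FR20vB. Without the 3 animals, and with the CPF animals kept, it called 1676, 2132 and 1508 of 13531. Of the calls with all animals, 872 in FR2vB (59.6%) were also called without the 3, and these were 52.0% of the calls without them. In FR8vB 945 were shared (64.0% and 44.3%), and in FR20vB 721 (62.8% and 47.8%), with 0, 0 and 1 reversed. Calls lost without the 3 numbered 592 in FR2vB, 532 in FR8vB and 428 in FR20vB. Of these, 458, 435 and 341 were genes apart between the 3 and the 15 at Baseline. Genes apart were defined on the same 3 libraries that enter the fit with all animals, so this overlap is a description. Over all genes tested at Baseline, 4943 of 12099 were apart. Of the lost calls, 191, 195 and 172 were not tested without the 3. Of the calls gained without the 3, 361 of 804, 586 of 1187 and 390 of 787 were apart as well.

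Muscle genes fell with all animals and mostly not without the 3. With all animals, 93 of 128 tested genes of 10 muscle lists were called lower in FR2vB (6.90% of all genes were), 99 in FR8vB (7.23%) and 86 in FR20vB (5.06%), and 1, 1 and 0 were called higher (3.61%, 3.38% and 3.19% of all genes). Without the 3 animals, 5, 14 and 7 of 90 tested were called lower (7.04%, 9.59% and 5.55% of all genes) and 7, 8 and 8 higher (5.35%, 6.17% and 5.59%). ACTA1 changed by -3.87 ± 1.52 (SE) on the log2 scale in FR2vB with all animals and by -0.36 ± 0.80 without the 3. The fit with all animals holds the 3 libraries that the rule chose, so its counts of calls are a description.

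Hepatocyte genes were called in both directions. With all animals, 1, 10 and 12 of 87 tested genes of 5 hepatocyte lists were called lower in FR2vB, FR8vB and FR20vB, and 15, 14 and 12 were called higher. Without the 3, 9, 34 and 32 of 87 were called lower and 11, 13 and 7 higher. These counts stand beside the shares of all genes given for the same fits, 7.04%, 9.59% and 5.55% lower without the 3, so the 9 in FR2vB were near that share. ALB in FR8vB changed by -1.02 ± 0.68 (SE) with all animals and by -1.51 ± 0.22 without the 3. TF in FR8vB changed by -0.86 ± 0.52 with all animals and by -1.38 ± 0.18 without the 3. The low Baseline values of the 3 libraries, which were chosen by ALB, enter the changes with all animals. The 15 were chosen by their Baseline ALB too. The changes of ALB, and of TF as another liver marker, are therefore given with no p in either fit. Leaving out only the 3 Baseline libraries and keeping the later libraries of these animals gave 1505, 1617 and 1358 calls, a choice made after seeing the data.

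The 3 libraries are also part of the FS group in the comparison of CPF with FS animals at Baseline. With all 18 FS animals edgeR's quasi-likelihood test called 1 gene higher in CPF (0.00809%) and 0 lower, at 964 genes with an unadjusted p under 0.05, and DESeq2 called 28. In that fit 101 of 127 tested genes of the 10 muscle lists had an unadjusted p under 0.05, beside 964 of all 12362 tested. Their median log2 change was -7.26, and 0 were called. The fit holds the 3 libraries that the rule chose, so these values are a description. Without the 3 animals 10 of 60 tested had such a p, beside 895 of all 11688 tested, with a median of -0.18. The other genes of these lists did not pass the filter there. Without the 3 animals 3 genes were higher (0.0257%), SHROOM3 and NADKD1 among them, and 0 lower. NADKD1, a mitochondrial NAD kinase, was at 251 to 569 CPM (median 398) in CPF animals against 73.2 to 201 CPM (median 117) in the 15 and 38.3, 22.2 and 23.6 CPM in the 3, and its change was 1.70 ± 0.20 (SE), adjusted p = 7.56e-05 (edgeR). SHROOM3, an actin-binding protein of epithelia, was at 17.7 to 46.8 CPM (median 30.0) against 5.78 to 18.3 CPM (median 10.5) in the 15 and 0.197, 0.117 and 0.499 CPM in the 3, and changed by 1.47 ± 0.20 (SE), adjusted p = 0.000984 (edgeR). For both, the 3 libraries lay below all 15.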

How the data were processed

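Biopsies labelled liver of 23 pigs at 4 timepoints gave 92 libraries, of which 91 were used, since 1 CPF library was also omitted by the study. The deposited table holds raw read counts per pig Ensembl gene. The authors made it with CASAVA 1.8.2, TopHat 1.5.0 on Sscrofa10.2, SAMtools and HTSeq, and tested with edgeR 3.2.4. The counting mode and strand setting are not given in the sources used here, so reads of overlapping and antisense genes may not be separable. Totals over the 91 libraries ran from 6877117 to 20315978 counts.

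Genes were kept where the CPM of the libraries in a fit totalled 10 or more. Baseline levels are log2(CPM + 0.5) on library totals, and differences carry the SE of 2 unequal-variance means. Because albumin chose the libraries, no test set the 3 against the 15 at Baseline. Later libraries and the comparisons of the study were tested with edgeR 4.0.16 (quasi-likelihood, TMM, Benjamini-Hochberg over all genes, limma 3.58.1, R 4.3.3). Single values were tested with an exact permutation test that went through all splits in Python 3.11.15 with numpy 2.4.6. Their p-values were adjusted with scipy 1.17.1. DESeq2 1.42.0 was an alternative. The SE beside an edgeR change was derived from that change and its test statistic, and was not an output of the fit. On simulated counts for the FR2 comparison of the same animals, 200 of 200 changed genes were recovered with 8 false calls among 11559 genes. The simulation changed only genes above a set level, by a fixed fold, with the same spread for all genes and no outlying animal. It therefore checks the code and does not measure recovery in the real libraries. Fold bounds use 3 counts per library, and intervals cover counting error only. Animals were a term in FR2vB, FR8vB and FR20vB, since the 4 libraries of an animal come from 1 pig. Deviations of such libraries correlated at a median r of 0.25 over 90 pairs, against -0.02 over 1680 pairs between animals. These pairs do not cover all animals of the fits.

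The members, gene lists and tests were chosen with earlier results of these data known. Named genes are the 6 markers, the members with the highest levels and the highest and lowest differences of each list, members with at most 3 counts in a group, both forms of an enzyme, the 15 leading genes and the 5 called genes of each direction with the smallest adjusted p. Others were chosen after their values were seen. The list of genes encoded in mitochondria was added after seeing the data. Symbols came from the tables of the study and a gene name table. List symbols without an identifier, promoter sequences and motifs were not analysed here. The values of a few genes are not reported here.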

Additional observations from a re-analysis of the deposited data

Results flagged for a closer look

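These changes were computed after the albumin differences at each label were seen, and they follow from the same values, so their p-values add no independent evidence. The change of albumin between later labels differed between animals 17, 19 and 21 and the other 15 FS animals. From the library labelled FR2 to that labelled FR8, albumin on the log2(CPM + 1) scale rose in 3 of 3 animals, by 0.80 to 1.37, and fell in 14 of 15, with changes from -1.37 to 1.72 (median -0.93). The difference between the groups was 1.96, with p = 0.0049 by an exact 2-sided permutation test over all splits of the 18 animals (adjusted over 3 changes 0.0074).

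From the library labelled FR2 to that labelled FR20, albumin rose in 3 of 3, by 0.29 to 0.98, and fell in 14 of 15, with changes from -2.85 to 0.78 (median -1.62). The difference was 2.25, with p = 0.0025 by the same exact permutation test (adjusted 0.0074). From labelled FR8 to labelled FR20 it fell in 3 of 3 and in 14 of 15, and the difference was 0.30 (exact permutation p = 0.40). In these 3 animals the libraries labelled FR2, FR8 and FR20 lay nearest the FR8, Baseline and FR2 profiles of the others, and the part of that order in the albumin changes was not tested.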

How the results depend on the processing

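Of 4943 genes apart at Baseline, 2724 were apart by at least 2 on the log2 scale, 1589 higher and 1135 lower, and RLE size factors gave 2152 higher where library totals gave 3237. Leaving out 1 of the 3 libraries gave 3118 to 3673 higher. Over 411 single genes, 0 of those apart changed direction under the alternatives run, and 670 of 2877 values moved by more than 1 SD between libraries.

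In the later libraries of the same animals the 560 calls labelled FR2 became 850 (506 higher) at an adjusted p alone, 296 (165 higher, 131 lower) without FS animals that died and, chosen after seeing the data, 985 (591 and 394) without animal 10. DESeq2 gave 444 lower. Leaving out 1 of the 3 animals gave 15 to 307 calls (9 to 215 higher, 6 to 101 lower). An adjusted p alone gave 2970 calls labelled FR8 (1604 higher, 1366 lower) and 4716 labelled FR20 (2376 and 2340).

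The striated muscle sum, which passed no test, changed sign. Without 1 animal it ran from -0.67 to 0.37 labelled FR2, with 0.24 without animal 17, from -0.087 to 0.55 labelled FR8 and from -0.72 to 0.071 labelled FR20, and TMM gave 0.33 labelled FR20. The albumin differences kept direction and call under each alternative run.

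CPF against FS at Baseline gave 3 calls without the 3 animals (3 higher), 2 without animal 21 (2 higher) and 28 with DESeq2 (5 higher, 23 lower), and 1 in the fit with all. Without the 3 animals 835 genes rose in FR8vB and 757 in FR20vB, against 470 and 444. Without animal 10 as well, a choice made after seeing the data, 897 rose in FR2vB, 1067 of 2550 in FR8vB and 899 of 1746 in FR20vB. Without the replicate block, the term for each animal, FR2vB, FR8vB and FR20vB gave 1674, 1744 and 1422 calls, all within 1.5 times the blocked counts. The cause of these changes was not tested. Depth limits genes listed at 0 to at most 0.148, 0.176 and 0.187 CPM in the 3 libraries.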
